A study of Homo sapiens with 44 samples.

Results

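This account describes how A549 cells, a human lung adenocarcinoma line, changed their RNA within 6 h of dexamethasone (dex), a synthetic glucocorticoid. It rests on 6 of the series' 44 samples: 3 that received vehicle (EtOH) and 3 that received 100 nM dex for 6 h. All 6 had been kept in steroid-depleted medium and carried the non-targeting control small interfering RNA (siNON, 20 nM, 72 h), so IRF2BP2, the cofactor studied in the series, had not been lowered in them. The authors pooled the 3 replicates of each group into 1 expression column. The members are the genes of that pair of columns, with 1 transcript per gene symbol. Of 25689 symbols, 13545 reached a mean of at least 1 CPM over the 2 columns and are called the genes tested. A gene is said to rise or fall where the false discovery rate (FDR) in the authors' deposited table is under 0.05. CPM, counts of tags scaled to the same total in each pooled column, compares 1 gene between columns, not 1 gene with another. The pooled columns hold no spread between replicates, so the deposited FDR is the only measure of it here, and the test behind that FDR is not given in the sources used here.

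Each of the 2 pooled columns held about 56.9 M tags. Tag totals and read counts here and below were inferred from the deposited expression values, which are rounded. Of 18 genes that mark A549 cells all 18 were tested, among them the aldo-keto reductase AKR1B10 at 6860 CPM and the keratin KRT8 at 5040 CPM under vehicle. Of 18 markers of blood, endothelial and fibroblast cells 4 were tested and none was called (summed level of those 4, 94.9 and 84.7 CPM), and the T cell receptor subunit CD3E was at 0 in both columns. The A549 markers summed to 38659 CPM under vehicle and 40622 CPM under dex, and 4 of them rose and 5 fell.

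Glucocorticoids cross the cell membrane and bind the glucocorticoid receptor (NR3C1), which chaperones hold ready in the cytoplasm. The bound receptor enters the nucleus, where it switches on genes at glucocorticoid response elements and restrains genes driven by NF-kB and AP-1. In airway epithelium the hormone is known for damping chemokine and cytokine genes, raising sodium uptake and setting the peripheral clock.

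Dex raised more genes than it lowered, and raised them further. Of 13545 genes tested, 1641 changed (12.1%): 950 rose (7.01%) and 691 fell (5.1%). At least 2-fold rises were seen in 317 genes (2.34%) and at least 2-fold falls in 127 (0.938%). A log2 fold change beyond 2 was reached by 78 risers and 11 fallers, and one beyond 3 by 26 and 2. In the authors' deposited table the median log2 fold change was 0.76 among risers, -0.64 among fallers and -0.01 over all genes tested. The risers together held 77519 CPM under vehicle and 126922 CPM under dex, and the fallers 56189 and 35659 CPM. Of the risers, 55 stood under 1 CPM under vehicle and passed the minimum only through the dex column, and 35 fallers stood under 1 CPM under dex. Every count of tested list members below carries this condition. Each is to be read against the 7.01% of all genes tested that rose and the 5.1% that fell. The lists were chosen with earlier results of these data known. They also share genes, so the counts of different lists are not independent of each other.

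**Figure D1:**
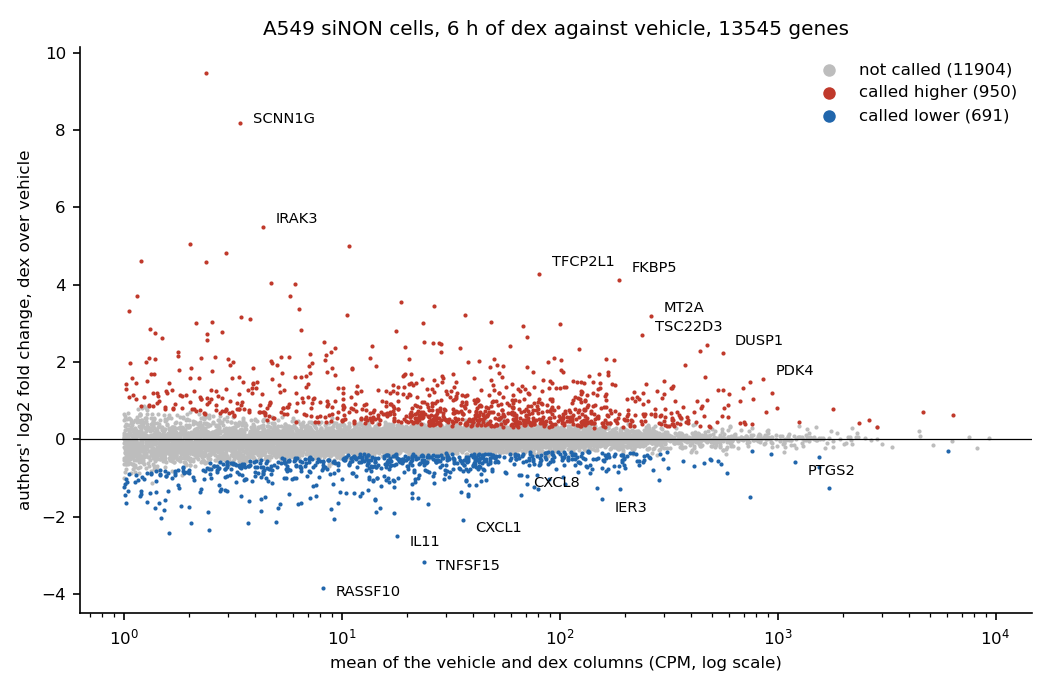
Each point is 1 of 13545 genes, placed by its mean CPM over the vehicle and dex columns (log axis) and by the authors' log2 fold change for dex over vehicle. Red points are the 950 genes called higher and blue points the 691 called lower; the red cloud reaches further from 0 than the blue one, and SCNN1G is the highest labelled point at 8.19.

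The receptor gene itself was not called. NR3C1 stood at 149.5 CPM under vehicle and 126 CPM under dex, and its log2 fold change of -0.19 in the authors' deposited table did not pass (FDR = 0.553). IRF2BP2 stood at 156 and 164 CPM and did not pass either (FDR = 0.651 in the authors' deposited table). Of 16 tested receptor and chaperone genes 5 rose and none fell. FKBP5, the immunophilin that lowers the receptor's affinity for hormone, went from 21.4 to 354 CPM. HSD11B2, the enzyme that inactivates cortisol, went from 2.57 to 11.8 CPM. The corepressor NCOR1 (178 to 212 CPM) and the coactivator NCOA3 (306 to 366 CPM) rose by less than 1.5-fold. The chaperones HSP90AA1, HSP90AB1, HSPA8, PTGES3 and STIP1 were not called. NR3C2, the mineralocorticoid receptor, was under the minimum, at 1.09 and 0.364 CPM.

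Genes known to be induced by the glucocorticoid receptor rose almost throughout. Of 36 on the list 33 were tested, and 29 rose and 1 fell, with a median log2 fold change of 1.56 in the authors' deposited table against -0.01 for all genes tested. The list was chosen with earlier results of these data known, so its count is a description and not an independent test. FKBP5, on chromosome 6 from 35541362 to 35696360 (build hg19), rose 16.6-fold and had the smallest deposited FDR of the list, 7.78e-189 in the authors' deposited table. TFCP2L1, a transcription factor of epithelial ducts on chromosome 2 from 121974164 to 122042778, went from 7.96 to 154 CPM. This 19.3-fold rise was the largest among the 33 tested. Both genes stood more than 10 times higher in the dex column than in the vehicle column.

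Several of the strongest members restrain other signals. TSC22D3 (GILZ), a leucine zipper protein that binds NF-kB and AP-1, went from 66.6 to 414 CPM. DUSP1, a phosphatase that switches off MAP kinases, went from 202 to 917 CPM, and ERRFI1, an inhibitor of the epidermal growth factor receptor, from 159.7 to 789.5 CPM. RGS2, which shortens G protein signals, went from 16.1 to 59.7 CPM. These 4 regulators rose between 3.70-fold (RGS2) and 6.21-fold (TSC22D3).

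Transcription factors of the list moved over a wide range. KLF9, a Krüppel-like factor, rose 11.3-fold, from 3.04 to 34.4 CPM. PER1, a clock repressor, rose 4.1-fold and CEBPD, a factor of the acute phase response, 3.78-fold. KLF6 rose 2.32-fold, BCL6, a repressor, 1.94-fold and CEBPB 2.47-fold. CEBPB overlaps its antisense gene CEBPB-AS1, and the counting is not stated to use strand, so the reads of the pair cannot be told apart. TIPARP, a mono-ADP-ribosyltransferase, rose 2.3-fold.

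Metabolic and secreted members followed. PDK4, a kinase that limits pyruvate oxidation, went from 460.1 to 1263 CPM. ANGPTL4, a secreted inhibitor of lipoprotein lipase, went from 22.4 to 120.2 CPM. CIDEC, a lipid droplet protein outside this list, went from 16 to 121 CPM, a 7.55-fold change beside 5.38-fold for ANGPTL4. In the authors' deposited table the FDR was 5.03e-12 for ANGPTL4 and 2.81e-97 for CIDEC, so pooled folds of like size had very different support. IGFBP1, which binds insulin-like growth factors, rose 1.93-fold and SERPINA3, an acute phase protease inhibitor, 1.7-fold. STOM, a membrane scaffold, rose 4.6-fold and MAOA, which breaks down amines, 2.88-fold. The cell cycle inhibitor CDKN1C, which stood at 1.67 CPM under vehicle, reached 11.4 CPM.

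Of the 33 tested, 4 did not rise. CRISPLD2, a secreted protein induced by glucocorticoids in airway smooth muscle, fell from 1.79 to 0.627 CPM (log2 fold change -1.32, FDR = 0.000867 in the authors' deposited table). That fall rests on about 102 reads under vehicle and 36 under dex. CRISPLD2 was called in none of the other 3 A549 dex comparisons described below. PIK3R1, a regulatory subunit of PI3 kinase, stood at 17.2 and 19.3 CPM, and LCN2, an iron-binding acute phase protein, at 21.1 and 20.5 CPM. CNKSR3, a scaffold of sodium channel regulation, stood at 12.2 and 11 CPM. These 3 were not called. In the A549 dex comparisons described below, PIK3R1 rose in each of the other 3, and CNKSR3 in those with TNF. FAM107A, ALOX15B and ZBTB16 lay under the minimum and were not tested. For ALOX15B the log2 fold change was 6.21 (FDR = 4.84e-06) in the authors' deposited table, so only the minimum kept it from the risers.

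**Figure D2:**
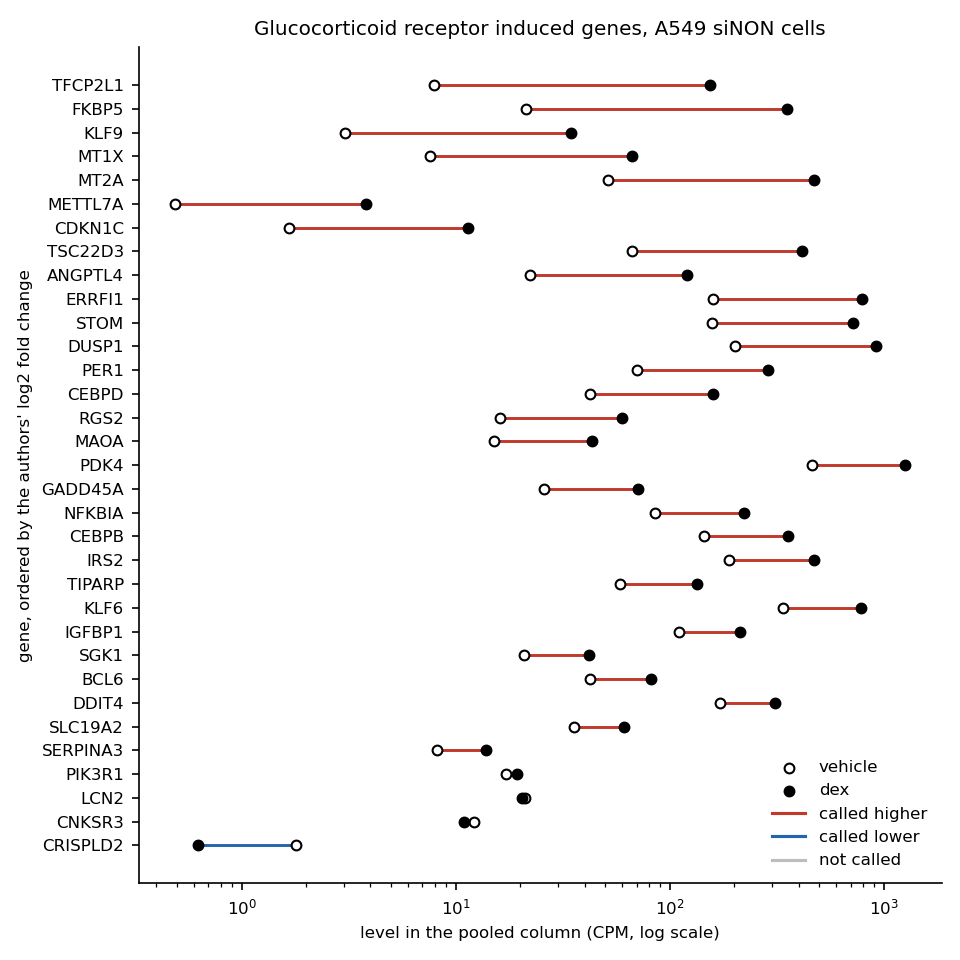
For each of the 33 tested genes of the glucocorticoid receptor induced list, an open circle gives the vehicle level and a filled circle the dex level in CPM (log axis), and the line joining them is red for called higher, blue for called lower and grey for not called. The 29 red lines run rightwards, and CRISPLD2 alone among the 33 has a blue line running left.

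The promoter table used here (RefSeq, build GRCh38.p14) held a sequence for 10766 of the 13545 genes tested. The 250 bases before each start were searched on both strands for a core of the glucocorticoid response element, spelled GNACA, any 3 bases, then TGTNC with N for any base. It occurred in 0.33% of all promoters of the table, in 0.176% of those of the genes tested, in 6 of 740 promoters of risers (0.811%) and in 1 of 522 of fallers (0.192%). None of the 29 list promoters available held these letters in that window. The 6 risers were CHST7, EPHA4, MAP3K6, PPARGC1A, RALGAPA2 and LOC100129434 and the faller was EVA1A, all named after their values were seen. CHST7, a sulfotransferase, rose with a log2 fold change of 2.07 in the authors' deposited table, and PPARGC1A, a coactivator of mitochondrial genes, went from 6.28 to 10.8 CPM. Their stretches are shown because the motif lies within 250 bases of the start, at chrX:46573515-46573594 (plus strand) and chr4:24473022-24473101 (minus strand), with the motif in capitals.
CHST7: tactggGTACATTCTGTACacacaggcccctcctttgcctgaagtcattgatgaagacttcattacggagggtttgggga
PPARGC1A: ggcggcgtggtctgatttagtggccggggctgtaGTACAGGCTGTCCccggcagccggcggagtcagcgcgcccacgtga

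Of 15 tested genes of epithelial sodium uptake 8 rose (against 7.01% of all genes), none fell (against 5.1%) and 7 were not called. Their median log2 fold change was 0.66 in the authors' deposited table. The epithelial sodium channel is built of alpha, beta and gamma subunits, and all 3 rose. SCNN1G, the gamma subunit on chromosome 16 from 23194040 to 23228200 (hg19), held about 2 pooled reads under vehicle and about 388 under dex. The deposited vehicle value was 0.001 FPKM, at the step of rounding, so the vehicle count and the ratio are uncertain. The ratio was about 194, with a 95% exact interval of 53.4 to 1608. That interval covers counting error only and not the rounding. SCNN1B, the beta subunit, went from 2.13 to 9.4 CPM and SCNN1A, the alpha subunit, from 9.34 to 29.8 CPM. SCNN1A overlaps LTBR, which can share its reads. All 3 subunit genes stood higher in the dex column, SCNN1G from a level of only about 2 reads.

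The channel's partners rose by less. SGK1, the kinase that keeps the channel at the surface, went from 20.8 to 42.1 CPM. ATP1B3, a subunit of the sodium pump, went from 209.7 to 316 CPM, and AQP3, a water and glycerol channel, from 117 to 194 CPM. NEDD4L, the ligase that removes the channel, and the kinase WNK1 were not called. Of 10 metallothionein genes, which bind zinc and copper, 4 were tested and all 4 rose. MT2A went from 51.4 to 472 CPM, MT1X from 7.6 to 66.4 CPM, MT1F from 3.27 to 9.73 CPM and MT1A from 0.968 to 2.2 CPM. These genes are close copies of each other, so the split of reads among them is uncertain.

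Of 17 clock genes tested, 6 rose (against 7.01% of all genes) and 1 fell (against 5.1%). The repressors PER1 (70 to 287 CPM), PER2 (41 to 97.6 CPM) and CRY2 (16.1 to 30.6 CPM) rose, as did CIART, a further repressor of the clock, from 2.02 to 7.53 CPM. NR1D1 (REV-ERB alpha), a nuclear receptor that represses the activator arm, fell from 95.5 to 67.1 CPM, and it overlaps THRA. The activators CLOCK and ARNTL, and also CRY1, PER3, DBP and NR1D2, were not called. Of 13 Krüppel-like factors 7 rose (against 7.01% of all genes) and none fell (against 5.1%). Beside KLF9 and KLF6, the factor KLF4 went from 29 to 52.6 CPM and KLF15, a known direct receptor target in muscle and lung, from 0.487 to 2.14 CPM.

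Feedback inhibitors of kinase signals rose in 7 of 17 tested genes and fell in 1. Beside DUSP1 and ERRFI1, DUSP6, the phosphatase of ERK, went from 39.2 to 82.8 CPM. SPRY1 and SPRY2, which dampen receptor tyrosine kinases, rose 1.66-fold and 1.44-fold. DUSP14 fell from 26.8 to 18.1 CPM, and DUSP4, DUSP5 and DUSP10 were not called. Among 20 tested anti-inflammatory and RNA decay genes 11 rose and 1 fell. The risers TSC22D3, DUSP1, NFKBIA and CDKN1C are on the receptor induced list as well. IRAK3, a kinase-like inhibitor of interleukin-1 and Toll-like receptor signals, rose about 43.3-fold, from 0.196 to 8.5 CPM. This was about 11 to 483 pooled reads, and the vehicle value rests on a rounded 0.003 FPKM. ZFP36 (tristetraprolin), which marks cytokine messages for decay, went from 162 to 440.2 CPM. SOCS3 rose from 18.6 to 33.2 CPM, while SOCS2, of the same family of cytokine signal inhibitors, fell from 10.8 to 4.52 CPM. ANXA1, a phospholipase inhibitor often linked to glucocorticoids, stood at 1274 and 1447 CPM and was not called.

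Genes driven by NF-kB in response to TNF mostly fell or were not called, and no TNF had been added. Of 34 on the list 23 were tested, and 13 fell and 3 rose, with a median log2 fold change of -0.60 in the authors' deposited table. The fallers were led by chemokines that draw neutrophils and monocytes. CXCL1, on chromosome 4 from 74735109 to 74737019 (hg19), went from 58.3 to 13.9 CPM, a 4.19-fold fall. CXCL3 went from 15.1 to 3.45 CPM, CXCL8 (interleukin-8) from 98.2 to 34.5 CPM and CCL2 from 14.8 to 4.45 CPM. CXCL5, a further neutrophil chemokine, went from 770.0 to 398 CPM. CXCL2 stood at 21 and 24.8 CPM and was not called. CXCL1, CXCL2 and CXCL3 are close copies, so their reads may be split uncertainly.

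NF-kB subunits and cytokines fell too. NFKB2 went from 106 to 46.6 CPM and RELB, its partner in the noncanonical pathway, from 48.5 to 27.2 CPM. The growth factor CSF1 went from 29.8 to 14.9 CPM, the cytokine LIF from 129 to 81.4 CPM and the adhesion molecule ICAM1 from 3.28 to 1.69 CPM. The 3 risers of the list are brakes on the same pathway or on cell death. NFKBIA, the inhibitor that holds NF-kB in the cytoplasm, went from 85.1 to 222 CPM. TNFAIP3 (A20), a ubiquitin-editing inhibitor, went from 16 to 25.8 CPM, and BIRC3, an inhibitor of apoptosis, from 65.8 to 173 CPM. NFKB1 and TRAF1 were not called.

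All 23 tested list genes stood higher in the TNF column than in the vehicle column, and the leading chemokines fell with dex there too. The comparison of dex plus TNF with TNF alone uses none of the 6 samples above. In it CXCL1 went from 316 to 101 CPM, CXCL8 from 1436 to 676 CPM, CCL2 from 268 to 68.2 CPM and ICAM1 from 646 to 322 CPM. CXCL2, uncalled without TNF, fell from 124 to 69.9 CPM with it. NFKBIA went from 464 to 551 CPM and BIRC3 from 433 to 719 CPM. In the authors' deposited table the log2 fold change of NFKBIA was 1.45 without TNF and 0.26 with it (FDR = 0.02), and the difference between the 2 was not tested.

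A core of the NF-kB site, spelled GGG, any 3 bases, then TTCC and searched on both strands of the 250 bases before the start, occurred in 9 of 18 list promoters available (50%). These letters occurred in 6.63% of the promoters of all genes tested and in 5.61% of all promoters of the table. By response, 3 of 3 list risers, 3 of 8 fallers and 3 of 7 uncalled genes held them, so genes with these letters rose, fell and stayed uncalled. Stretches of 80 bases are shown for fallers, an uncalled copy and risers of the list, chosen after their values were seen, with matches in capitals (GRCh38.p14). They lie at chr4:73869279-73869358 (plus strand), chr4:74038724-74038803 (minus strand), chr4:74099229-74099308 (minus strand), chr4:73998724-73998803 (minus strand), chr14:35404786-35404865 (minus strand), chr6:137867163-137867242 (plus strand) and chr11:102317250-102317329 (plus strand), in the order printed.
CXCL1: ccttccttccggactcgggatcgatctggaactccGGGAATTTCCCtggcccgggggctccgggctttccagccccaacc
CXCL3: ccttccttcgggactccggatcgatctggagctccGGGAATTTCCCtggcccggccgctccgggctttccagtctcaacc
CXCL2: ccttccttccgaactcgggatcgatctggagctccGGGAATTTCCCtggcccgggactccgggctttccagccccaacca
CXCL5: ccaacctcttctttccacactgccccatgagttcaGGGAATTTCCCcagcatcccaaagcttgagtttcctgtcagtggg
NFKBIA: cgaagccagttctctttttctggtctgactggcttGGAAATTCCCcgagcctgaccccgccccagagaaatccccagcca
TNFAIP3: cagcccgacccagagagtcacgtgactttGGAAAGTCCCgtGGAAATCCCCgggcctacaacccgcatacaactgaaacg
BIRC3: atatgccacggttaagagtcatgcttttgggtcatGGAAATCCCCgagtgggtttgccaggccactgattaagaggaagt

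CXCL1 and CXCL3 were identical at 73 of these 80 positions and CXCL1 and CXCL2 at 64, compared with no gaps. In the chemokines CXCL1, CXCL2, CXCL3 and CXCL5 the capitals were 1 run of 11 bases, GGGAATTTCCC, that matched on both strands. CXCL1 and CXCL3 fell 4.19-fold and 4.39-fold with this run, whereas CXCL2, with the same run 1 base nearer the start, was not called without TNF. TNFAIP3 held 2 separate matches, GGAAAGTCCC and GGAAATCCCC, and NFKBIA and BIRC3 held 1 each.

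Immediate early and AP-1 genes split, with 7 of 21 tested rising and 8 falling. Among AP-1 subunits FOS rose from 78.7 to 152 CPM, FOSL2 from 221 to 326 CPM and JUNB from 50.5 to 75.3 CPM, while JUN fell from 346 to 193 CPM and JUND from 281 to 179 CPM. IER3, an early survival gene, fell from 235 to 78.1 CPM and the nuclear receptor NR4A2 from 58.3 to 24.4 CPM. ETS2 and ETS1, transcription factors downstream of MAP kinases, rose 1.97-fold and 1.52-fold, and EGR1 fell from 109 to 71.5 CPM. Within 1 family some members thus rose and others fell.

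The AP-1 letters TGANTCA, read on either strand, occurred in 16 of 89 promoters of genes that fell at least 2-fold (18%). They occurred in 8.81% of the promoters of all fallers, 5.95% of those of risers and 7.95% of those of risers of at least 2-fold. The share was 3.85% over the promoters of all genes tested and 6.6% over all promoters of the table. Among the 20 largest falls named below, 15 had a promoter sequence and 3 held the letters: TNFSF15, IL11 and FST. CXCL8 held them too, without the NF-kB letters as spelled above. These 4 stretches, chosen after the values were seen, lie at chr9:114792608-114792687 (minus strand), chr19:55370517-55370596 (minus strand), chr5:53480432-53480511 (plus strand) and chr4:73740395-73740474 (plus strand) (GRCh38.p14), with the AP-1 letters in capitals.
TNFSF15: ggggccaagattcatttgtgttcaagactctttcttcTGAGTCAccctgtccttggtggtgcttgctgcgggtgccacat
IL11: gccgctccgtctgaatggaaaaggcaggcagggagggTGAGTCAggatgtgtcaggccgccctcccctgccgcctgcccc
FST: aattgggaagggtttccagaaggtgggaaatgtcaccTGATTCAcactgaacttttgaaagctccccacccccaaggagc
CXCL8: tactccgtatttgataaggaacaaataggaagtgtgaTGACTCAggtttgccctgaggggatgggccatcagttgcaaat

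Interferon response genes fell in 6 of 17 tested (against 5.1% of all genes) and rose in none (against 7.01%). Their median log2 fold change was -0.39 in the authors' deposited table. ISG20, an antiviral exonuclease, went from 47.1 to 27 CPM, the RNA sensor DDX58 (RIG-I) from 13.4 to 8.17 CPM and IFIT2 from 2.5 to 1.06 CPM. MX1, an antiviral GTPase, went from 1.51 to 0.773 CPM with an FDR of 0.0358 in the authors' deposited table. IRF1 and IRF9 were not called. In the prostaglandin pathway 2 of 14 tested genes rose and 2 fell, counts too small to set apart from the 7.01% and 5.1% of all genes. PTGS2 (COX-2), the inducible cyclooxygenase, went from 1483 to 915 CPM, a 1.62-fold fall, and the phospholipase PLA2G4C from 10.2 to 4.66 CPM. HPGD, which degrades prostaglandins, rose from 139.9 to 269.8 CPM and the prostaglandin E2 receptor PTGER4 from 3.15 to 9.07 CPM.

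Fuel metabolism genes rose in 13 of 33 tested (against 7.01% of all genes) and fell in 3 (against 5.1%). CIDEC rose 7.55-fold, and ACSL1, which activates fatty acids, went from 36.6 to 114 CPM. IRS2, an insulin receptor substrate, went from 189.6 to 471 CPM, and PCK1, the gluconeogenic carboxykinase, from 0.898 to 3.64 CPM. FOXO3 and FOXO1, transcription factors of fasting, rose 1.56-fold and 1.36-fold. HK2, the hexokinase that opens glycolysis, fell from 6.92 to 1.64 CPM, and PFKFB3, a further glycolytic enzyme, from 237 to 139 CPM. The glucose transporters SLC2A1 and SLC2A3 were not called.

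Growth factor and receptor genes fell in 8 of 36 tested (against 5.1% of all genes) and rose in 4, near the 7.01% of all genes. Ligands of the epidermal growth factor receptor family fell: EREG from 139.6 to 67 CPM, TGFA from 32.1 to 17.3 CPM, AREG from 8.5 to 4.56 CPM and NRG1 from 110.4 to 66.3 CPM. HBEGF and BTC of the same family, and the receptors EGFR, ERBB2 and ERBB3, were not called. GDF15, a stress-induced hormone, fell from 269.6 to 111 CPM. VEGFA, the angiogenic factor, rose from 42.5 to 66.7 CPM and INSR, the insulin receptor, from 19.4 to 27.3 CPM.

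Among 26 adrenergic and G protein signal genes 8 rose (against 7.01% of all genes) and 5 fell (against 5.1%). ADRA2A, the alpha-2A adrenergic receptor, rose from 0.863 to 10.8 CPM and ARRB1, an arrestin that ends receptor signals, from 62.1 to 168 CPM. F2R and F2RL1, protease-activated receptors, rose 1.6-fold and 1.57-fold. The bradykinin receptors BDKRB2 (60 to 27.4 CPM) and BDKRB1 (6.01 to 3.33 CPM) fell. PDE4B and PDE7B, which break down cyclic AMP, fell from 51.2 to 23.3 CPM and from 14.1 to 3.78 CPM, while PDE4D rose from 169 to 226 CPM. ADRB1 was not called.

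Targets of YAP and TEAD, the effectors of the Hippo pathway, rose in 11 of 26 (against 7.01% of all genes) and fell in 3 (against 5.1%). ANKRD1 went from 12.1 to 34.4 CPM, AMOTL2 from 75.2 to 161 CPM and CTGF, a matricellular protein, from 49.7 to 74.3 CPM. The effectors themselves rose as well, YAP1 from 106 to 181 CPM and WWTR1 (TAZ) from 232 to 375 CPM. AMOTL1, TGFB2 and IGFBP3 fell. Of 29 mesenchymal and matrix genes 6 rose (against 7.01% of all genes) and 3 fell (against 5.1%). Among the risers, THBS1 (thrombospondin-1) went from 64.7 to 261 CPM and TGFBR1, a TGF-beta receptor, from 78.8 to 206 CPM. FN1, VIM and CDH2 were not called.

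Epithelial junction and keratin genes rose in 8 (against 7.01% of all genes) and fell in 6 (against 5.1%) of 22. PKP2, a desmosome protein, went from 22.9 to 80.1 CPM and CDH1 (E-cadherin) from 98.7 to 159 CPM. The keratins KRT7, KRT8 and KRT18 rose 1.68-fold, 1.52-fold and 1.58-fold, whereas KRT19 fell from 254 to 144 CPM. KRT8 and KRT18 overlap in this annotation and may share reads. The claudins CLDN1, CLDN2 and CLDN4 fell, with CLDN2 going from 520.2 to 311 CPM. In the lung epithelial list 1 of 8 tested genes rose and 2 fell. These counts are too small to set apart from the 7.01% and 5.1% of all genes. CAV1 rose from 155 to 288 CPM, and the pioneer factors FOXA1 and FOXA2 fell from 44.3 to 25.1 CPM and from 36 to 21.8 CPM.

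Protease and coagulation lists held at most 3 calls in a direction, to be read against the 7.01% of all genes that rose and the 5.1% that fell. Of 18 tested matrix protease and inhibitor genes 3 rose and 3 fell, and the plasminogen activator PLAU (109 to 74.9 CPM) and its receptor PLAUR (86 to 44.2 CPM) were among the fallers. Of 24 coagulation, complement and acute phase genes 3 rose and 1 fell, near those shares, with thrombomodulin (THBD) going from 40 to 92.3 CPM and the fibrinogen chain FGA from 95.1 to 150.3 CPM. FGB, FGG, F3 and C3 were not called.

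NRF2 targets fell in 11 of 27 and rose in none. HMOX1, the haem oxygenase, went from 147 to 65.4 CPM, SRXN1 from 398 to 230.4 CPM, TXNRD1, the thioredoxin reductase, from 1974 to 1139 CPM and GCLM, which makes glutathione precursors, from 169.6 to 97.4 CPM. The orphan receptor NR0B1 fell from 54 to 22.7 CPM. NQO1 and AKR1C1 to AKR1C3 were not called, and the median log2 fold change of the list was -0.21 in the authors' deposited table. In the IRF2BP2 family IRF2BPL fell from 70.3 to 48 CPM, and IRF2BP1 was not called.

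Some broad programmes held few calls. The cell cycle list had 2 risers and 2 fallers among 35 tested, CDKN1C and cyclin CCND1 (328 to 573 CPM) against CDC6 and CCND3. The cholesterol synthesis list had 1 riser, HMGCS1 (707 to 1068 CPM), and 1 faller, INSIG1 (567 to 352 CPM), among 30. Hypoxia and glycolysis genes had 1 and 2 among 22, and p53 targets 2 and 1 among 23. With 7.01% of all genes rising and 5.1% falling, counts of this size lie near the background. Unfolded protein and amino acid stress genes had 4 risers and 2 fallers among 23, with more rising than that share, and this was not tested. Of the HEK293 markers, used as a check, 7 were tested and 2 fell, with a summed level of 86.1 and 60.0 CPM over those tested.

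**Figure D3:**
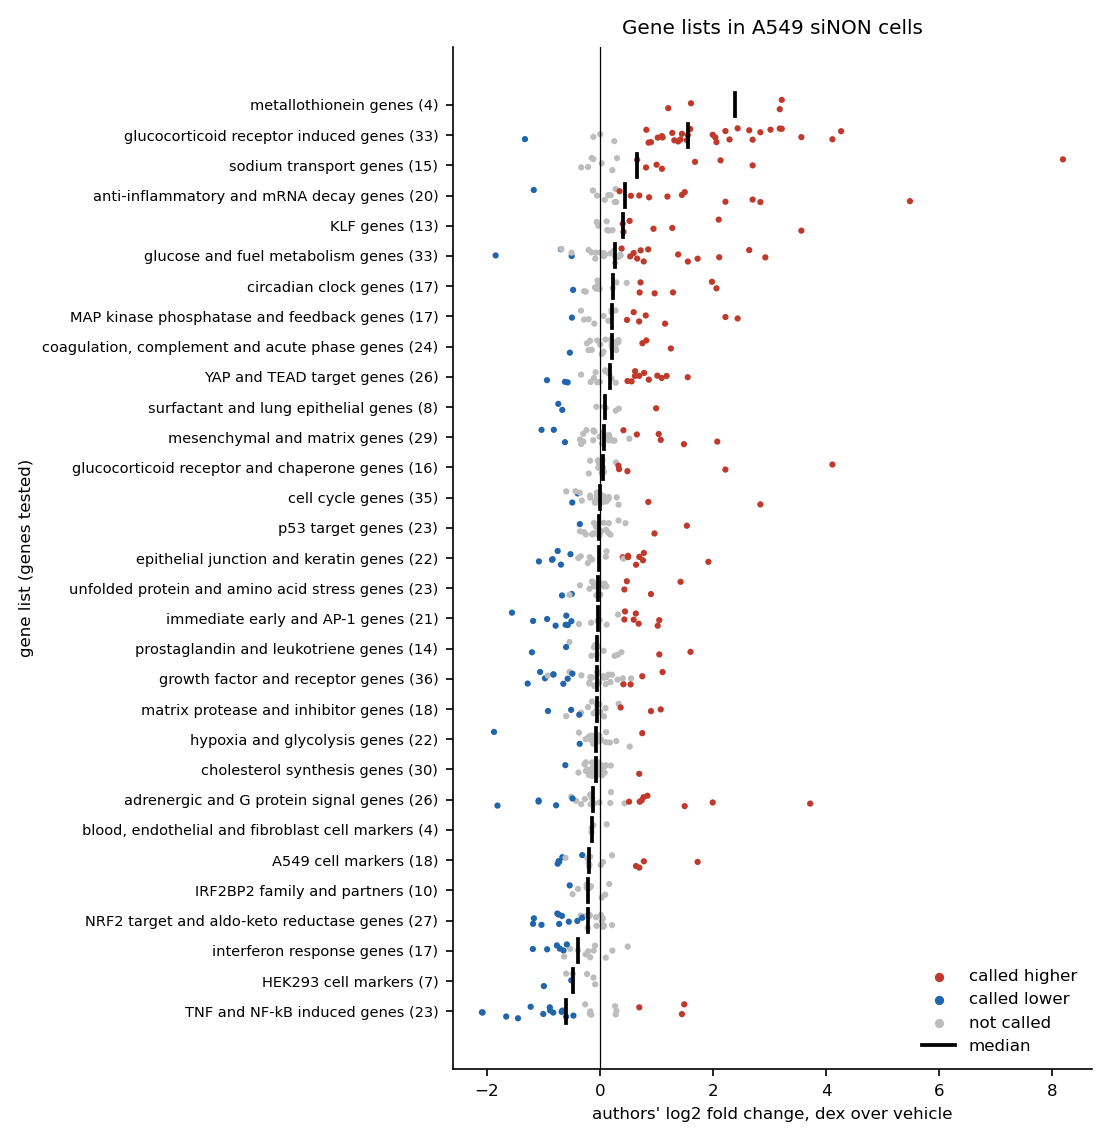
Each point is a tested gene of a list, placed by the authors' log2 fold change for dex over vehicle; lists are ordered by their median (black bar), red marks genes called higher, blue called lower and grey not called. The receptor induced list sits at a median of 1.56 near the top and the TNF and NF-kB list at -0.60 at the bottom; NFKBIA stands on both.

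Beyond the lists, the 20 largest rises and falls among protein-coding genes with at least 5 CPM in 1 column named further functions. STAC2, an adaptor of calcium channels, rose from 0.641 to 20.9 CPM and C5AR2, a receptor of the complement fragment C5a, from 0.197 to 5.71 CPM. HAL, the enzyme that breaks down histidine, rose from 0.735 to 11.4 CPM and RHCG, an ammonium transporter, from 23.2 to 179 CPM. UNC5B, a netrin receptor, rose from 1.17 to 11.7 CPM and FGD4, an activator of the GTPase CDC42, from 11.1 to 85.5 CPM. DNAJC15, RRAD, GMPR, GPR153 and FAM105A rose between 7.65-fold (GPR153) and 10.2-fold (FAM105A).

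The largest fall was that of RASSF10, a Ras-association family protein, from 15.5 to 1.02 CPM. TNFSF15, a TNF family cytokine, fell from 43.2 to 4.47 CPM and the cytokine IL11 from 30.6 to 5.49 CPM. PTHLH, the parathyroid hormone-like hormone of epithelia and tumours, fell from 27.9 to 6.95 CPM and FST (follistatin), which binds activin, from 7.95 to 2.25 CPM. EPHB3, an ephrin receptor, fell from 6.18 to 1.28 CPM and KCNE4, a potassium channel subunit, from 8.3 to 1.69 CPM. EGLN3, an oxygen-sensing hydroxylase, fell from 23.4 to 5.35 CPM and BMF, a death-promoting BCL2 family member, from 5.71 to 1.8 CPM. RND1, NAV3, DACT2, ST8SIA4 and MARCH4 fell between 2.95-fold (NAV3) and 3.53-fold (MARCH4). HK2, with a 4.22-fold fall, had the weakest support of the 20 (FDR = 0.00653 in the authors' deposited table).

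Most of the response recurred in A549 cells under other conditions. The table holds 3 further dex comparisons that share no sample with this one or with each other: after the small interfering RNA against IRF2BP2 (siIRF2BP2), on top of TNF, and with both. In the columns labelled siIRF2BP2 the targeted RNA was only partly lower: IRF2BP2 stood at 138 CPM under vehicle and 121 CPM under dex, against 156 and 164 CPM with siNON. With TNF it stood at 112 CPM, and at 94.3 CPM with TNF and dex, against 138 and 133.5 CPM with siNON. In the comparison labelled siIRF2BP2, 856 of the 950 risers rose (90.1%, against 15.6% of all genes tested) and 557 of the 691 fallers fell (80.6%, against 12.6%). On top of TNF, 731 risers rose (76.9%, against 10.6%) and 404 fallers fell (58.5%, against 8.37%). With both, 729 rose (76.7%, against 15.2%) and 419 fell (60.6%, against 12.8%). In all 4 comparisons 640 genes rose and 304 fell. Only 52 of the risers and 68 of the fallers were called in none of the other 3.

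Among the 40 largest changes some varied with the condition. FKBP5 was close to constant, with log2 fold changes of 4.11, 4.07, 4.32 and 4.31 in the authors' deposited table for siNON, siIRF2BP2, siNON with TNF and siIRF2BP2 with TNF. UNC5B had 3.38, 3.90, 0.64 and 0.05 in the authors' deposited table in that order, and RHCG 2.98, 1.58, 0.96 and 0.74. RHCG stood at 218 CPM under TNF alone, above its 179 CPM under dex alone. EPHB3, at 6.18 CPM under vehicle, stood at 1.34 CPM under TNF and 1.55 CPM under both agents and was not called there. HK2 was called in none of the other 3. Differences between these comparisons were not tested.

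**Figure D4:**
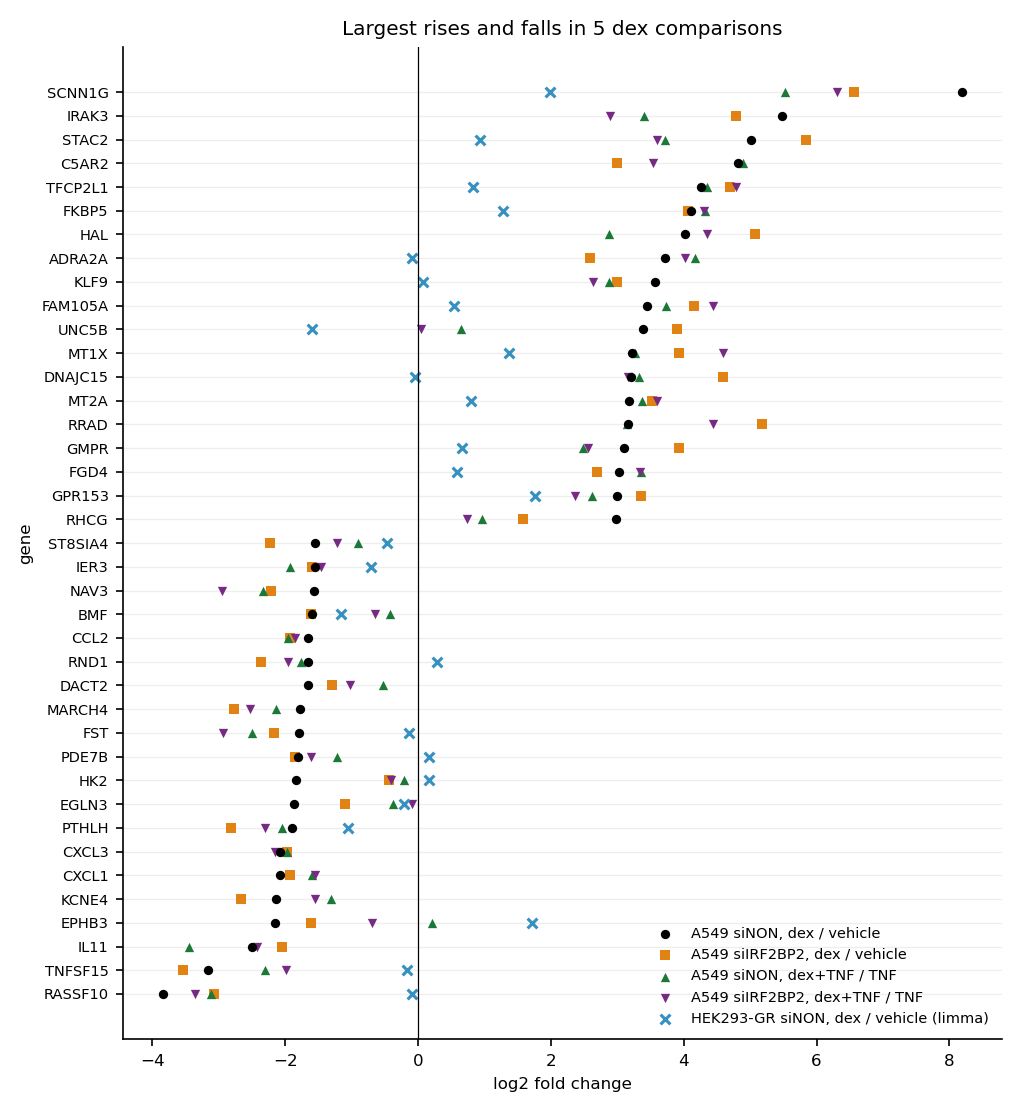
Log2 fold changes with dex of genes among the 20 largest rises and 20 largest falls of A549 siNON cells, beside the same genes in the 3 other A549 dex comparisons (authors' values) and in HEK293-GR siNON cells (limma, drawn where tested). The A549 symbols of a gene mostly lie on 1 side of 0, EPHB3 being an exception at 0.21 with TNF, while most HEK293-GR crosses lie nearer to 0.

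A few genes were called in opposite directions. CYP1B1, a cytochrome P450 induced by the aryl hydrocarbon receptor, fell from 94.6 to 47.3 CPM without TNF and rose from 24 to 40.8 CPM with it. In the authors' deposited table its log2 fold changes were -0.94 and 0.75 (FDR = 2.18e-15 and 2.52e-11). ANKS4B, a microvillus protein, fell from 8.17 to 3.75 CPM and rose from 1.91 to 3.07 CPM with TNF. For both genes the TNF column lay below the vehicle column. G0S2, an inhibitor of lipolysis, rose from 1.2 to 2.69 CPM and fell with siIRF2BP2 and TNF combined, and CDK5R2, TIAM2 and EYA2 completed the 6 largest such cases. TIAM2 overlaps TFB1M. In all, 6 risers and 4 fallers were called the opposite way in the comparison labelled siIRF2BP2, 7 and 7 with TNF, and 22 and 25 with both.

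HEK293-GR cells are embryonic kidney cells with an added, steadily expressed receptor gene. They had received the same siNON and 6 h treatments, and their values come as 1 column per library, with columns for replicates 1 to 3 of each group. The labels number 1 more replicate of each group, which was not analysed here. The 6 siNON libraries held 18.8 to 22.4 M tags, and the fit over 12 libraries also took in the 6 labelled siIRF2BP2 (18.2 to 28.5 M tags) to estimate the spread. Across the 12 no gene exceeded 2.83 to 3.11 reads per base, against 326 in the A549 vehicle column. The length column equalled the genomic span for 98.6% of A549 transcripts and for 9.97% of HEK293-GR genes, so the measures are unlike. The part of either difference in the comparison was not tested. Limma called 1658 of 13983 genes higher (11.9%) and 1560 lower (11.2%), 3218 in all. Without dex replicate 3 the calls numbered 1951.

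The A549 response recurred there in part. Of the 830 A549 risers tested in both lines, 264 rose in HEK293-GR cells (31.8%, against 11.6% of the 12465 genes tested in both) and 96 fell (11.6%, against 10.2%). Of 552 A549 fallers, 163 fell (29.5%, against 10.2%) and 64 rose (11.6%, against 11.6%). Calls in the opposite direction were thus about as frequent as among all genes tested in both lines. Of 29 tested receptor induced genes 22 rose and 1 fell in HEK293-GR cells. PIK3R1 and CNKSR3, not called in A549 siNON cells, were among those risers. CDKN1C went from 1.13 ± 0.227 to 27.6 ± 2.3 FPKM (mean ± SD, n = 3), a log2 fold change of 4.50 ± 0.17 (limma ± SE, adjusted p = 1.39e-12). PDK4 rose by 4.37 ± 0.12 and SGK1 by 3.69 ± 0.09 in HEK293-GR cells, each with all 3 dex libraries above all 3 vehicle libraries (limma adjusted p = 2.03e-14 and 1.07e-14). In A549 the authors' deposited table gave them 1.56 and 1.10.

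The order of the strongest genes differed between the lines, whose values rest on the unlike measures given above. FKBP5 rose by 1.29 ± 0.08 (limma, HEK293-GR) against 4.11 in the authors' deposited table for A549. KLF9 rose 11.3-fold in A549 and had a limma log2 fold change of 0.08 ± 0.09 in HEK293-GR cells (adjusted p = 0.584), where it stood at 4.63 ± 0.302 to 4.88 ± 0.319 FPKM (mean ± SD, n = 3). KLF6 and CEBPB, risers in A549, did not pass limma in HEK293-GR cells, with log2 fold changes of -0.21 ± 0.08 and 0.11 ± 0.11 (adjusted p = 0.0559 and 0.5). Of 14 TNF and NF-kB genes tested in HEK293-GR cells 3 rose and none fell, and the risers were again NFKBIA (1.83 ± 0.08), BIRC3 (1.78 ± 0.18) and TNFAIP3 (1.06 ± 0.11). CXCL1, CXCL3, CXCL5, CXCL8 and CCL2 lay under the minimum there.

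With opposite calls at the background share, the 6 largest, EPHB3, UNC5B, CRISPLD2, FOXQ1, SOX9 and G0S2, are given as single genes. EPHB3 rose in HEK293-GR cells from 2.12 ± 0.264 to 7.14 ± 0.463 FPKM (mean ± SD, n = 3), by 1.71 ± 0.14 (limma ± SE, adjusted p = 6.93e-08). UNC5B fell from 9.86 ± 1.51 to 3.17 ± 0.297 FPKM, with a log2 fold change of -1.60 ± 0.12 (limma adjusted p = 1.05e-08). SOX9, a transcription factor of progenitor cells, fell from 56.3 to 19.8 CPM in A549 and rose by 1.19 ± 0.11 in HEK293-GR cells (limma adjusted p = 1.95e-07). FOXQ1, a forkhead factor, rose from 10.4 to 46.8 CPM in A549 and changed by -1.22 ± 0.18 in HEK293-GR cells (limma adjusted p = 6.66e-05). CRISPLD2, the 1 faller of the receptor induced list in A549, rose by 2.01 ± 0.17 in HEK293-GR cells. Its low-level fall in A549 siNON cells was called in none of the other 3 A549 dex comparisons. The difference between the lines was not tested, since the A549 replicates are pooled.

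**Figure D5:**
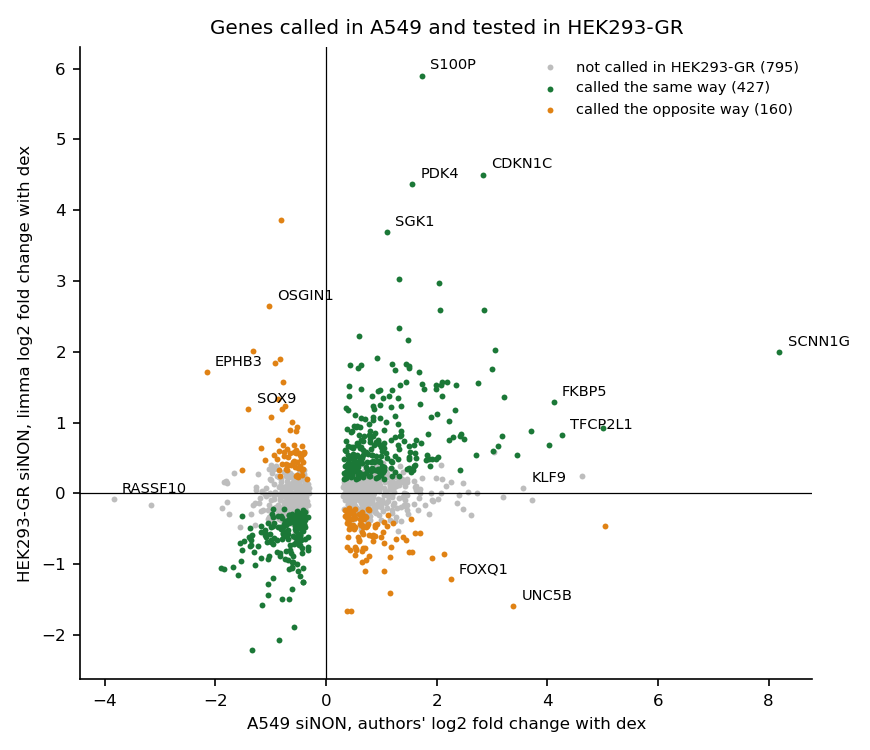
Each point is 1 of the A549-called genes that were tested in HEK293-GR cells, placed by its log2 fold change with dex in A549 (authors' value, horizontal) and in HEK293-GR cells (limma, vertical). Green points, 427 genes, were called the same way in both lines, orange points, 160 genes, the opposite way, and grey points were not called in HEK293-GR cells.

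IRF2BP2 binding had been mapped in HEK293-GR cells only, after 1 h of treatment. A dex peak lay within 25 kb of the start of 86 of the 950 A549 risers (9.05%), 31 of the 691 fallers (4.49%) and 3.23% of all genes tested (hg19). For risers of at least 2-fold the share was 12%. Vehicle peaks lay near 4.42% of risers, 5.21% of fallers and 2.89% of all. The risers FKBP5, TFCP2L1, DUSP1, PDK4, IGFBP1 and RHCG had a dex peak and no vehicle peak in reach. So did the faller BMF and PIK3R1, which was not called. PER1, CEBPB and BCL6 had both, and KLF9, KLF6 and ANGPTL4 a vehicle peak only. Peaks of another line within such a window are a description of position and tie no peak to a gene.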

How the data were processed

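The submitters' processing notes list, on build hg19 and with no role or order, edgeR, TopHat2, Bowtie2, HOMER, Trimmomatic 0.33 and FastQC for RNA. For ChIP they list bedtools and Bowtie 0.12.9 among others. The authors deposited FPKM values, pooled over the 3 replicates of each A549 group and per library in HEK293-GR cells. The log2 fold changes, p-values and FDR of A549 are those the authors deposited, and the test behind them is not given in the sources used here. The series' design text calls the replicates biological.

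From the A549 FPKM, CPM was computed by multiplying by the length column, and each symbol kept the transcript with the highest mean over 8 columns. A mean of at least 1 CPM over the 2 columns was required. Tag totals were estimated as those that brought low FPKM values nearest to whole reads. Read counts and reads per base follow from these estimates. HEK293-GR values were tested with limma 3.58.1 (R 4.3.3, trend, log2(FPKM + 0.1), 12 libraries, 8 residual df, Benjamini-Hochberg adjustment). On that scale the change of low genes is understated. The limma script was tested on simulated data. Peaks are the authors' lists, used by position within 25 kb of a start.

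The members and gene lists were chosen with earlier results of these data known. Named genes were the 20 largest rises and falls with at least 5 CPM in 1 column, up to 6 called members per list by smallest deposited p, called genes of the receptor induced list, IRF2BP2, NR3C1 and up to 6 reversals per side comparison. Other list members named were chosen after their values were seen. Alternatives were other filters, thresholds, transcripts, pseudocounts, fits and left-out replicates. Some genes are not reported here.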

Additional observations from a re-analysis of the deposited data

How the results depend on the processing

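The A549 counts of 950 risers, 691 fallers and 444 changes of at least 2-fold stayed within 1.5 times under each alternative run. They were 789, 497 and 435 at an FDR of 0.01, 1053, 732 and 587 with no CPM minimum, and 809, 534 and 305 at a minimum of 5 CPM. Of the 600 list and named genes 246 were called. None of these changed sign when the fold change was taken from the pooled columns with a pseudocount of 0.1, 0.5 or 1 CPM. Both values rest on the same samples, and an equal pseudocount on both sides cannot reverse a ratio, so this is no independent check. The fold change moved by more than counting error for 249, 273 and 294 of the 600, in the order of the pseudocounts. With a pseudocount of 0.5 and centring on the median of all genes tested, it did so for 99. The 3218 HEK293-GR calls became 3154 with a pseudocount of 1, 2387 with no filter, 2692 with 2 groups only and 3395 with other size factors. With the replicate number as a replicate block they became 2661, and the 427 genes changed alike in both lines became 387. Same-numbered libraries deviated with correlations of -0.158, -0.332 and -0.413, and differently numbered ones with -0.114 to 0.357. The deviations were taken from means of only 3 libraries, so these values cannot settle whether the numbers mark pairs. Leaving out 1 HEK293-GR library at a time gave 1951 to 3986 calls and 331 to 435 genes changed alike, with the lowest count of calls without dex replicate 3. Pooling in A549 leaves no replicate to leave out, and the spread between A549 replicates cannot be read from these columns.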

Other observations

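RBBP8NL and CGA lay under the 5 CPM used for naming and were picked after their values were seen. RBBP8NL, an RBBP8-like gene, had no read in the vehicle column and 273 in the dex column. CGA, the alpha chain of the glycoprotein hormones, had 7 and 222 reads, or 0.125 and 3.91 CPM. In the authors' deposited table the FDR was 4.64e-49 for RBBP8NL and 1.72e-30 for CGA.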
